A study of Lathyrus oleraceus with 16 samples.

Results

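The 150 genes described here had their highest expression in the shoot apical meristems of pea plants that were pruned and never bore seeds. They were chosen on the measured values of all 16 libraries. A gene qualified when its lowest Pruned library lay above its highest Proliferative library and its Pruned level was 0.8 or more above the level of each other group, on a log2 scale of the mean normalized count plus 10. Of the 48559 gene IDs in the table, 204 qualified, and the 150 with the largest gap to the next group were kept. These values chose the genes, so they are given as a description and carry no test.

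The study sequenced RNA from shoot apices of wild-type pea (Pisum sativum, now also Lathyrus oleraceus) of the genotype Cameor, in 4 groups of 4 libraries. Pruned meristems came from plants that were deflowered continuously and stayed active, sampled on the day on which the fruiting plants arrested. Reactivated meristems were sampled 24 h after every flower and fruit had been removed from arrested plants, and were active again. GPA meristems were arrested, sampled as the fruiting plants entered proliferative arrest. Proliferative meristems were active and came from young plants with a flower bud but no open flower. All plants were wild type and shared the greenhouse regime of 16 h light at 21.5 °C and 8 h dark at 15 °C. Apices were dissected by eye, so leaf and bud tissue can be present. Pruned plants were older than Proliferative plants, which had borne no seeds either, and no other group was pruned continuously. Against Proliferative, age and pruning therefore cannot be told apart. Against GPA and Reactivated, pruning and seedlessness cannot be told apart. Fewer cells of a type and less RNA per cell cannot be told apart in such samples. Each group's 4 libraries are biological replicates per the labels, which do not say whether each was 1 plant or a pool, and p-values measure only the spread between these libraries.

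The shoot apical meristem is the group of dividing cells at the tip of the stem that makes new leaves and flowers. In pea and other plants that fruit once, developing fruits and seeds bring this activity to an end, which is called proliferative arrest. Taking the fruits away delays arrest or lets an arrested apex grow again. The comparison of Pruned with the other groups asks which transcripts accompany an apex that has reached the age of arrest without sensing seeds.

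The file gives gene IDs beginning with Psat and pairs none of them with a name, and 0 of the 48559 IDs matched the RefSeq gene table of the assembly CAAS_Psat_ZW6_1.0. No function, position or sequence is therefore given, and lists of meristem, flower, leaf, dormancy, cell cycle and wounding genes were not run. The labelled tissue could not be checked against marker genes for the same reason. Levels are CPM, counts scaled to a common library size, with TMM factors. They depend on transcript length, so they are compared between libraries and not between genes. Total counts per library ran from 16264221 to 24435174. With the low-count filter and the TMM factors, 1 count was worth between 0.0342 and 0.0715 CPM. A floor of 3 counts over a group's libraries stood for 0.0488 CPM in Reactivated and 0.0319 CPM in GPA. Equal counts thus mean a higher level in Reactivated than in GPA.

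1 of the Pruned libraries stood below the others for these genes. Pruned 4 was the lowest of the 4 Pruned libraries for 122 of the 150 genes (81.3%), against 22.3% of all 23979 genes tested. The median gene stood in Pruned 4 at 47.1% of its mean over the other 3 Pruned libraries, with quartiles of 32.0% and 62.6%, while the median over all genes tested was 98.3%. Pruned 3 was the highest library for 84 of the 150 (56.0%), against 29.2% of all genes tested. Over the whole transcriptome Pruned 4 did not stand apart: its mean correlation with the other Pruned libraries was 0.965, and the other 3 had 0.959 or 0.960 (Pearson's r across genes, which are not independent replicates). What sets Pruned 4 lower in these genes was not tested.

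**Figure D1:**
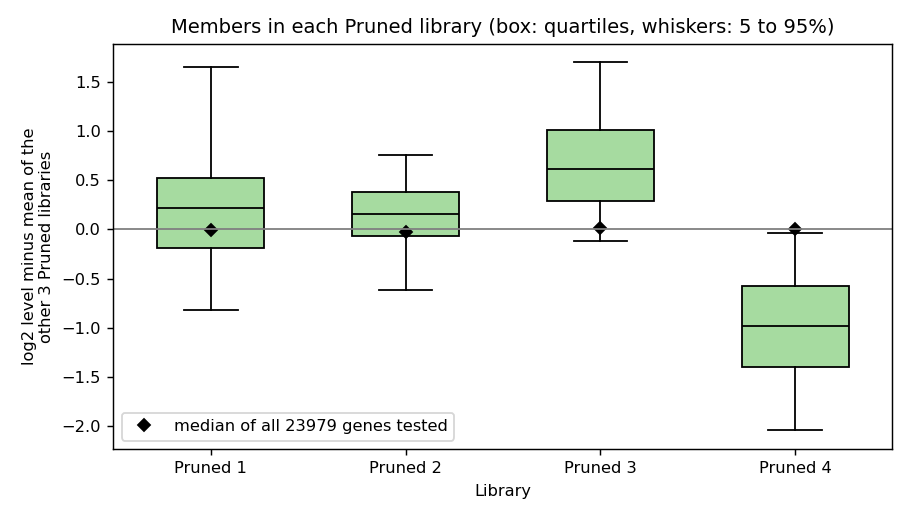
For each Pruned library (x axis), the boxes show the 150 genes' log2(CPM + 0.5) minus the mean of the other 3 Pruned libraries (y axis; line at the median, box over the quartiles, whiskers from 5 to 95%), and diamonds show the median of all 23979 genes tested. The genes' medians were 0.22, 0.16, 0.61 and -0.98 for Pruned 1 to 4, while the diamonds lie between -0.03 and 0.02.

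The gap between Pruned and the next group had a median of 1.69 on the log2 scale and ran from 1.06 to 5.78. On that scale, which understates folds of low genes because of the added 10, the median is a 3.23-fold and the largest gap a 55-fold difference. A gap of 2 or more was found for 52 genes and of 3 or more for 14. At the limit of the list, the gaps of genes 149 and 150 were 1.07 and 1.06, and those of the first 2 genes left out were 1.06 and 1.05, so no step in the values separates the list from the genes that follow it.

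The group next to Pruned varied among the genes. It was Reactivated for 53 genes, GPA for 36 and Proliferative for 61. The 53 include Psat3g207160, which had 0 counts in every other group and so had no single next group. The most frequent order was Pruned, Proliferative, Reactivated, GPA, with 47 genes, and the next was Pruned, Reactivated, Proliferative, GPA, with 42. GPA alone was the lowest of the 4 groups for 88 of the 150 genes, Reactivated for 33 and Proliferative for 26, with 3 genes tied between groups at 0 counts. The counts of orders include these 3 genes, whose tied groups were placed arbitrarily.

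**Figure D2:**
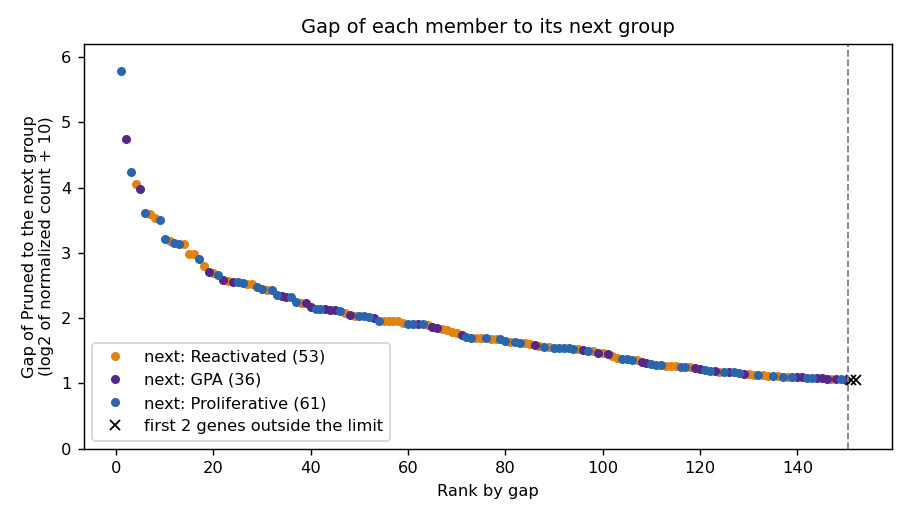
Gap of each of the 150 genes to its next group (y axis, log2 of normalized count plus 10) by rank (x axis), coloured by the next group, with crosses for the first 2 genes past the limit at the dashed line. The gap fell from 5.78 at rank 1 to 1.06 at rank 150, and all 3 next groups occur along the whole range.

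The genes ran from barely detected to abundant transcripts. Mean levels in Pruned went from 0.598 to 2073 CPM with a median of 12.8, close to the median of 12.7 CPM over all genes tested. In the other groups the medians of the 150 genes were 2.14 CPM in Reactivated, 1.28 in GPA and 2.29 in Proliferative, where all genes tested had medians of 11.1, 12.3 and 12.6 CPM. Without Pruned 4, the median Pruned level of the 150 genes was 14.9 CPM.

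Detection followed the same order. All 150 genes had counts in every Pruned library, and the number with a count in a library was 131 ± 2.63 in Reactivated, 117 ± 1.00 in GPA and 138 ± 4.43 in Proliferative (mean ± SD, n = 4 libraries). No gene was at 3 or fewer counts over the 4 Pruned libraries, whereas 17 were in Reactivated, 23 in GPA and 12 in Proliferative. A level of 1 CPM or more in every library of the group was reached by 126 genes in Pruned, 78 in Reactivated, 63 in GPA and 82 in Proliferative.

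Together the 150 genes took 0.942% ± 0.278 of all counts in Pruned, 0.129% ± 0.0241 in Reactivated, 0.160% ± 0.0208 in GPA and 0.212% ± 0.0473 in Proliferative (SD, n = 4). The single libraries of Pruned ran from 0.672% in Pruned 4 to 1.32% in Pruned 3, and every other library lay between 0.110% and 0.280%. A few genes carried much of this: Psat6g175480 alone made up 23.0% of the Pruned counts of the list. Without the 10 most abundant genes the shares were 0.340% in Pruned, 0.0501% in Reactivated, 0.0512% in GPA and 0.0731% in Proliferative.

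The lowest Pruned library was above the highest library of each other group for 130 of the 150 genes. For all genes tested that share was 1.39%, a figure set beside a count that the choice of genes in part fixed. Against Reactivated alone it held for 136 genes (17.8% of all genes tested), against GPA for 139 (31.7%) and against Proliferative, by the way the genes were chosen, for all 150 (4.11%). Among the 20 genes that overlapped another group, the lowest Pruned library was Pruned 4 for 18.

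**Figure D3:**
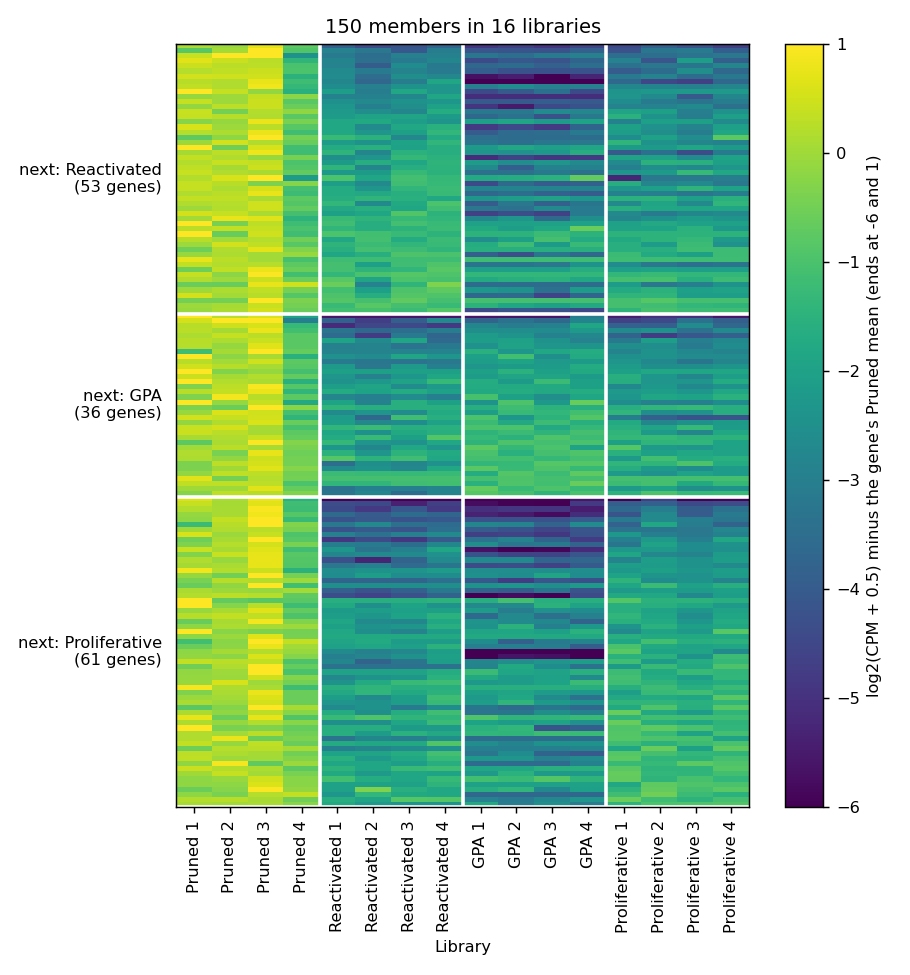
Each row is 1 of the 150 genes and each column 1 library; colour is log2(CPM + 0.5) minus the gene's mean over the Pruned libraries, ending at -6 and 1, and rows are grouped by the group next to Pruned (53, 36 and 61 genes). The Pruned columns are the lightest, Pruned 4 is darker than Pruned 1 to 3, and of the cells at or past the dark end of the scale 3 lie in Reactivated, 17 in GPA and 2 in Proliferative.

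Among genes with Proliferative next, Psat0s2707g0200 had the largest gap of the list. It stood at 56.6, 39.3, 63.0 and 12.2 CPM in Pruned 1 to 4, and at 0, 0.134, 0 and 0.0569 CPM in Reactivated 1 to 4. In GPA it had 0 counts in libraries 1 to 3 and 0.272 CPM in GPA 4, and in Proliferative it had 0.0571, 0.877, 0.0532 and 0.0973 CPM. The gene was thus near its detection limit outside Pruned, and even Pruned 4 stood above the highest of the other libraries, Proliferative 2. The following gene of this kind, Psat5g061360, was detected in every library, with 110, 88.1, 136 and 38.1 CPM in Pruned 1 to 4, 2.88 ± 0.938 in Reactivated, 1.31 ± 0.802 in GPA and 4.44 ± 1.01 in Proliferative (SD, n = 4).

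Among genes with GPA next, Psat5g108040 had the largest gap, and that rank of GPA rested on 1 library. It stood at 49.2, 28.7, 36 and 5.59 CPM in Pruned 1 to 4 and had 0 counts in the 4 Reactivated libraries. GPA 4 held all 44 of its GPA counts, 2.40 CPM, and GPA 1 to 3 had none. In Proliferative it was at 0.0571, 0.239, 0.213 and 0 CPM. Relative to a floor of 3 counts over the 4 Reactivated libraries, it was at least 588-fold higher in Pruned.

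Psat3g127280, also with GPA next, showed how far Pruned 4 could depart from its group. It was at 36.4, 52.6, 63.9 and 2.67 CPM in Pruned 1 to 4, at 1.27, 0.468, 1.22 and 3.41 CPM in Reactivated, at 1.347, 1.914, 1.495 and 2.996 CPM in GPA and at 0.514, 0.638, 1.92 and 1.22 CPM in Proliferative. Pruned 4 lay below GPA 4 and Reactivated 4 and above all Proliferative libraries, so the groups overlapped in that library and the gap rests on Pruned 1 to 3.

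Among genes with Reactivated next, Psat5g257480 was separated in every library. It had 89.2, 79.6, 134 and 47.9 CPM in Pruned 1 to 4, against 4.65 ± 1.09 in Reactivated, 2.58 ± 0.393 in GPA and 3.79 ± 1.1 in Proliferative (SD, n = 4). Psat1g194920 had 5.01, 9.25, 30.6 and 4.64 CPM in Pruned 1 to 4, so 61.8% of its Pruned level came from Pruned 3. It had 0.523 ± 0.321 CPM in Reactivated, 0.0599 ± 0.0714 in GPA and 0.312 ± 0.284 in Proliferative, and no library of these groups reached 1 CPM.

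**Figure D4:**
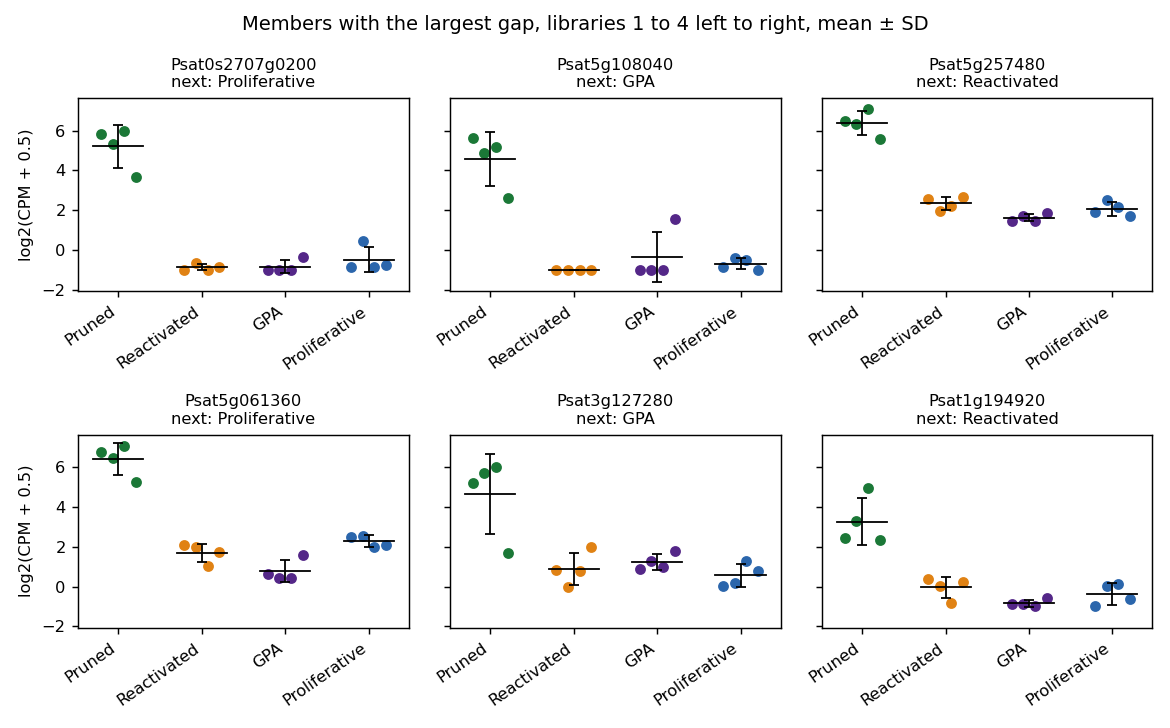
Level of the 2 genes with the largest gap for each next group, as log2(CPM + 0.5) (y axis) in the 4 libraries of each group (x axis; points are libraries 1 to 4 from left to right, lines the mean and bars the SD). The rightmost Pruned point, Pruned 4, is the lowest of its group in all 6 panels, and in the panel of Psat3g127280 it overlaps points of Reactivated and GPA.

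Psat6g175480 and Psat3g069000, the most abundant genes of the list in Pruned, behaved differently from each other. Psat6g175480 reached 1819, 2167, 2338 and 1969 CPM in Pruned 1 to 4, and here Pruned 4 was within the range of the others. It was at 331, 267, 307 and 489 CPM in Reactivated, at 12.1, 11.9, 10.6 and 20.6 CPM in GPA, and at 1191, 541, 543 and 320 CPM in Proliferative. The GPA libraries were thus far below all 12 active libraries, and Proliferative 1 was the highest of its group. Psat3g069000 was at 823, 1056, 1663 and 880 CPM in Pruned 1 to 4, 205 ± 65.5 in Reactivated, 505 ± 86.5 in GPA and 248 ± 67.0 in Proliferative, so GPA stood next to Pruned for this gene (SD, n = 4).

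For some genes 1 Pruned library held most of the Pruned level. Such a share does not by itself mean that the gene qualified through that library. Psat1g194920 had 61.8% in Pruned 3, yet Pruned 1, 2 and 4 stood at 5.01, 9.25 and 4.64 CPM, above every library of the other groups. The top Pruned library held over 50% of the Pruned level for 21 genes, Pruned 3 in 11 of them and Pruned 1 in 10; an even share would be 25%. The most extreme were Psat4g077720, with 85.0% in Pruned 1, and Psat0s3664g0040, with 72.2% in Pruned 3. Psat4g077720 was at 6.96, 0.458, 0.378 and 0.387 CPM in Pruned 1 to 4, and its highest Proliferative library was at 0.343 CPM. Psat0s3664g0040 was at 0.256, 0.254, 2.11 and 0.301 CPM in Pruned 1 to 4, with 3 counts over the Reactivated libraries, none in GPA and 2 in Proliferative. For both, most of the distance to the other groups came from a single Pruned library.

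The 150 genes varied more between replicates than most genes did. Among those with a group mean of 1 CPM or more, the median coefficient of variation was 41.2% in Pruned (146 genes), 30.0% in Reactivated (93), 27.7% in GPA (79) and 28.1% in Proliferative (99). Over all genes tested, the medians were 19.2% in Pruned, 16.7% in Reactivated, 14.3% in GPA and 19.5% in Proliferative. The median gene-wise dispersion in the edgeR fit was 0.132 for the 137 genes of the list that entered it and 0.0489 for all genes tested. These figures are descriptions, and lists were not matched for level.

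The genes were chosen again without 1 Pruned library, and the new list was read in the library that had not been used. Only the Pruned value is then outside the choice. With Pruned 1 unused, 140 of the 150 newly chosen genes lay in it above the highest Proliferative library, which 23.4% of all genes tested did. With Pruned 2 unused it was 148 (21.2% of all genes tested), with Pruned 3 unused 124 (24.2%) and with Pruned 4 unused 122 (21.5%). A stricter reading asked that the unused library lie above all 12 libraries of the other groups. It held for 138 genes in Pruned 1 (7.88% of all genes tested), 145 in Pruned 2 (8.07%), 123 in Pruned 3 (8.97%) and 107 in Pruned 4 (7.72%). Above the mean of each other group lay 145 genes in Pruned 1 (17.8%), 149 in Pruned 2 (18.8%), 128 in Pruned 3 (21.2%) and 133 in Pruned 4 (21.4%). Most genes of each list thus stood high in the unused library. The other groups' libraries had been used to choose genes low in them. Part of the distance to the shares of all genes tested is therefore built in, and how much was not tested.

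The size of the gap depended on which Pruned library was left unused. In the unused library the median gap to the highest other group mean was 1.65 in Pruned 1, 1.76 in Pruned 2 and 1.96 in Pruned 3, close to or above the 1.63, 1.70 and 1.61 in the libraries used. In Pruned 4 it was 0.77, against 2.00 in the libraries used, and 74 of the 150 genes kept a gap of 0.8 or more, against 121, 131 and 115 with Pruned 1, 2 or 3 unused. Without Pruned 4, 296 genes qualified in place of 204, and 122 of the top 150 were also in the full list.

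The genes lay together in the ID numbering more often than they made up the table. In the numerical order of the IDs tested, 10 listed genes had another listed gene next to them. Of 223 neighbouring positions, counted once for each listed gene beside them, 12 (5.38%) were taken by a listed gene, while listed genes made up 0.571% of the IDs tested. IDs of the form Psat0 held 37 of the 150 (24.7%), against 11% of all genes tested, and Psat5 IDs held 30, against 16.1% of all genes tested. The other prefixes, Psat1 to Psat4, Psat6 and Psat7, held between 11 and 16 genes each. Numbering is no coordinate, and since reads were counted without regard to strand, neighbouring, overlapping or near-identical genes can share reads.

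The longest run held 4 consecutive tested IDs and is named here after its values were seen. Psat5g294880 was at 7.72, 11.6, 19.5 and 3.48 CPM in Pruned 1 to 4 and at most 0.0669 CPM in Reactivated, 0.109 in GPA and 0.957 in Proliferative. Psat5g294960 was at 26.2, 30.6, 37.9 and 16.3 CPM in Pruned 1 to 4, and at means of 8.60 in Reactivated, 2.73 in GPA and 7.41 in Proliferative. Their neighbours Psat5g294800 and Psat5g294920 had Pruned means of 13.2 and 12.8 CPM and means between 3.68 and 5.54 CPM in the other groups. All 4 IDs were highest in Pruned 3 and lowest in Pruned 4, as were 67 of the 150 genes (44.7%; 5.42% of all genes tested). The 4 IDs differed in how low they were elsewhere.

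Of the 150 genes, 137 passed the filter on low counts and entered the quasi-likelihood test of edgeR, with p adjusted by Benjamini-Hochberg over all 23979 genes tested. The 13 others had Pruned means between 0.598 and 2.08 CPM. Called means an adjusted p under 0.05. As a description of the choice, 117 were called higher in Pruned than in Proliferative, where 1.94% of all genes tested were. In Pruned against GPA 137 were called higher (36.6% of all genes tested), and in Pruned against Reactivated 136 (21.8%). The genes were chosen for these contrasts and many passed the filter through Pruned alone, so nothing is read from the counts. The 20 without a call against Proliferative show that non-overlapping groups did not always pass the test.

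The contrasts among Reactivated, GPA and Proliferative contain no Pruned library. They are partly free of the choice, which held each of these groups below Pruned but did not set them against each other. The choice did not treat them alike, however. It held every single Proliferative library below Pruned, but GPA and Reactivated by their means only. Both contrasts with Proliferative can carry a trace of this. The 3 contrasts share libraries in pairs, so they are given side by side. On the libraries of the groups compared alone, 96 of the 150 genes would have passed the filter for Reactivated against GPA, and 107 for each of the other 2 contrasts, so the counts below are no sample of the whole list. Calls among the genes that pass on those libraries alone are given beside them. Of the 12 results for named extremes of these contrasts, 6 concern genes that entered the test through the other groups, and for these no p is given.

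In GPA, the arrested state, more of the genes were lower than higher relative to Proliferative. Of the 137, 68 were called lower (49.6%; 35.1% of all genes tested) and 15 higher (10.9%; 30.6%), 60.6% in either direction, against 65.7% of all genes tested. The groups did not overlap, lower in GPA, for 60 genes (31.0% of all genes tested) and, higher in GPA, for 13 (28.0%). The median log2 fold change was -0.93 over the 137 genes and -0.08 over all genes tested, and the median standard error of a gene was 0.42. The median was -0.91 with the 8 genes at 0 counts in a group set to their bounds. Fitted on these 8 libraries alone, 50 of 107 genes were lower (46.7%; 32.1% of all genes in that fit) and 14 higher (13.1%; 33.1%). With scaling by library totals, 57 were lower (41.6%; 29.2% of all genes tested) and 19 higher (13.9%; 36.8%).

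The genes named in this contrast were chosen as its extremes. Psat0s667g0080 had 0 counts in the 4 GPA libraries, against 2.34, 3.87, 2.18 and 1.65 CPM in Proliferative 1 to 4. It was at least 81.5-fold lower in GPA (edgeR adjusted p = 1.18e-07). Psat5g199160, also at 0 counts in GPA and at 2.09 ± 0.765 CPM in Proliferative (SD, n = 4), was at least 65.5-fold lower (edgeR adjusted p = 2.19e-06). Both genes were without overlap between the groups, and the folds are bounds against 3 counts over the 4 GPA libraries.

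In the other direction, Psat7g264320 was at 8.29, 2.97, 5.72 and 9.04 CPM in GPA 1 to 4, against 1.60, 0.717, 0.426 and 0.438 CPM in Proliferative. The log2 difference was 3.04 (SE 0.63, edgeR adjusted p = 0.000491), and the lowest GPA library was above the highest Proliferative one. Psat0s3139g0040 was at 0.253, 0.923, 0.044 and 0.436 CPM in GPA, against 0.0571, 0.0797, 0 and 0 CPM in Proliferative, 3 counts in all. The groups overlapped, since GPA 3 lay below Proliferative 1 and 2. The pooled ratio was 12.2 with an exact 95% interval of 3.90 to 61.5 for counting error only.

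In Reactivated, 24 h after the removal of flowers and fruits, more of the genes were higher than lower relative to GPA. Of the 137, 61 were called higher (44.5%; 36.3% of all genes tested) and 17 lower (12.4%; 35.8%), 56.9% in either direction, against 72.0% of all genes tested. The groups did not overlap, higher in Reactivated, for 54 genes (34.4% of all genes tested) and, lower in Reactivated, for 14 (34.3%). The median log2 fold change was 0.59, against -0.01 over all genes tested, with a median standard error of 0.42, and 0.62 with the 12 genes at 0 counts in a group set to their bounds. Fitted on these 8 libraries alone, 45 of 96 genes were higher (46.9%; 36.1% of all genes in that fit) and 16 lower (16.7%; 40.5%). The counts depended on the scaling, for these genes and for all genes. With library totals 49 were higher (35.8%; 24.8% of all genes tested) and 32 lower (23.4%; 49.5%), and the median of the 137 genes was 0.00, while that of all genes tested was -0.58.

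At the upper end, Psat2g009400 was at 1.74, 1.74, 1.93 and 4.15 CPM in Reactivated 1 to 4 and had 0 counts in GPA, so it was at least 77.6-fold higher in Reactivated (edgeR adjusted p = 8.21e-07). It was at 15.3, 16.0, 21 and 14.0 CPM in Pruned. Psat7g236240 was at 3.28, 0.268, 1.65 and 3.98 CPM in Reactivated and at 0 counts in GPA, at least 74.5-fold higher. Both were detected in every Reactivated library and in no GPA library.

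At the lower end, Psat7g099720 had 0 counts in Reactivated, against 0.758, 0.239, 0.528 and 0.654 CPM in GPA 1 to 4, and was at least 10.7-fold lower. Psat5g145800 had 0 counts in Reactivated, against 0.210, 1.02, 0.352 and 0 CPM in GPA, and was at least 9.36-fold lower. GPA 4 had no count of Psat5g145800 either, so the groups met there. These were low transcripts outside Pruned, where Psat7g099720 stood at 4.57 ± 5.0 CPM and Psat5g145800 at 5.23 ± 3.19 (SD, n = 4).

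The abundant pair gave the same contrast at high counts. Psat6g175480 was higher in Reactivated than in GPA by 4.66 in log2 (SE 0.37, edgeR adjusted p = 8.50e-09) and lower in GPA than in Proliferative by -5.56 (SE 0.38, adjusted p = 3.49e-09). Psat3g069000 was lower in Reactivated than in GPA, by -1.30 (SE 0.26, adjusted p = 0.000243), and higher in GPA than in Proliferative, by 1.03 (SE 0.25, adjusted p = 0.00207). These genes thus moved in opposite directions in both contrasts, which share the GPA libraries.

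Between Reactivated and Proliferative, both active, fewer genes differed. Of the 137, 12 were called higher in Reactivated (8.76%; 18.5% of all genes tested) and 24 lower (17.5%; 22.6%), 26.3% in either direction, against 41.1% of all genes tested, and 101 had no call. The groups did not overlap, higher in Reactivated, for 8 genes (17.4% of all genes tested) and, lower in Reactivated, for 22 (19.6%). The median log2 fold change was -0.17, against -0.09 over all genes tested, with a median standard error of 0.40, and -0.15 with bounds. Fitted on these 8 libraries alone, 12 of 107 genes were higher (11.2%; 18.9% of all genes in that fit) and 20 lower (18.7%; 21.8%). With library totals 9 were higher (6.57%; 9.52% of all genes tested) and 42 lower (30.7%; 41.9%), and the medians were -0.54 for the 137 genes and -0.46 for all genes tested.

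Psat5g145800, with 0 counts in Reactivated, was at 0.628, 1.63, 1.01 and 2.14 CPM in Proliferative 1 to 4 and at least 28.7-fold lower in Reactivated (edgeR adjusted p = 0.000920). Psat5g268480, also at 0 counts in Reactivated, was at 0.413 ± 0.223 CPM in Proliferative (SD, n = 4) and at least 9.0-fold lower. In Pruned, 71.1% of the level of Psat5g268480 came from Pruned 3. No library of either gene overlapped between Reactivated and Proliferative.

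Psat1g213720 was at 0.469, 0.268, 0.286 and 0.682 CPM in Reactivated 1 to 4, against a single count in Proliferative, a ratio of 36 with an exact 95% interval of 5.94 to 1474 for counting error only. Psat7g236240 was higher in Reactivated than in Proliferative by 2.44 in log2 (SE 0.75, edgeR adjusted p = 0.0192), but Reactivated 2, at 0.268 CPM, lay within the Proliferative range of 0.120 to 0.799 CPM. Its call was lost without Reactivated 1 (adjusted p = 0.0521), Reactivated 4 (0.0626), Proliferative 2 (0.0506) or Proliferative 3 (0.0516).

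**Figure D5:**
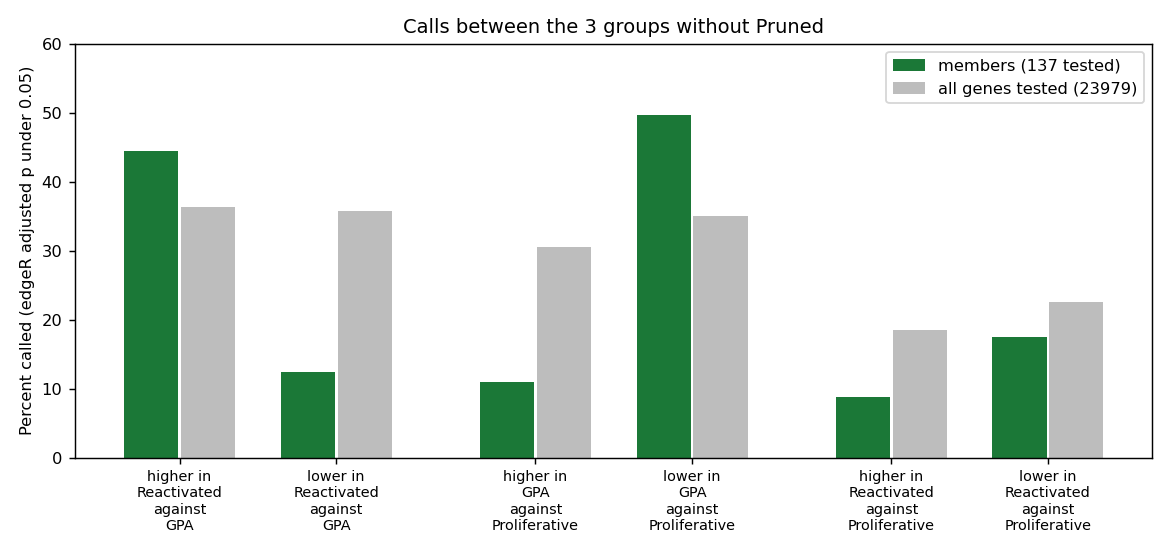
Percent of the 137 genes of the list tested (green) and of all 23979 genes tested (grey) called higher or lower (y axis; edgeR, adjusted p under 0.05) in the contrasts among Reactivated, GPA and Proliferative (x axis). The green bars are 44.5 and 12.4% for Reactivated against GPA, 10.9 and 49.6% for GPA against Proliferative and 8.76 and 17.5% for Reactivated against Proliferative.

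The same conditions were met by fewer genes with the direction or the highest group changed. With the direction turned round, so that Pruned had to be lowest, 39 genes qualified in place of 204. With Proliferative in place of Pruned as the highest group, and Pruned as the group that must not overlap, 29 genes qualified. GPA and Reactivated were not tried as the highest group. These are counts from the same libraries and carry no test.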

How the data were processed

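The authors deposited 1 table of raw read counts per gene, not normalized. HISAT2, HTSeq, cutadapt and DESeq2 are named in the submitters' processing notes, without versions; the genome build and annotation are not given in the sources used here. The table's name says that reads were counted without strand. No row named anything but a gene, and 17007 of 48559 IDs had no count. Genes and lists were chosen with earlier results of these data known.

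The choice used counts divided by median-of-ratios size factors. Tests used R 4.3.3 and edgeR 4.0.16 (filterByExpr by group, TMM, glmQLFit, glmQLFTest, group as the only term, all 16 libraries), tried on simulated data first; the standard error is the log2 fold change divided by the root of F. Levels are CPM on TMM-scaled library sizes. P-values measure the spread between these libraries only. Bounds and intervals cover counting error only and use 3 counts as the floor.

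Named genes are, by a fixed rule, the 2 with the largest gap per next group, the 2 highest and 2 lowest called per contrast without Pruned, the 2 most abundant and the 2 most carried by 1 Pruned library. Alternatives were DESeq2 1.42.0, other scalings, no filter, only the 8 libraries compared, a replicate block and each library left out.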

Additional observations from a re-analysis of the deposited data

Results flagged for a closer look

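Groups of 4 libraries were screened with Dixon's test, for the named genes and for 4 summaries of the list. Groups with a count in fewer than 2 libraries were not screened, which leaves out Psat5g108040 in GPA, where GPA 4 holds all 44 counts. Of 80 groups, 12 held a library far from the other 3. For 2 of these, Psat4g077720 and Psat0s3664g0040 in Pruned, the choice of the gene by its share in 1 Pruned library fixed the result, which leaves 10 of 78. Chance gives about 1 in 20 for groups not chosen on their values. No explanation was tested.

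In Pruned, Psat7g264320 was at 5.98 CPM in Pruned 4, against 22.4 to 24.6 in the others. Psat5g268480 was at 10.3 CPM in Pruned 3, against 0.817 to 2.03. Psat4g077720 was at 6.96 CPM in Pruned 1, against 0.378 to 0.458. Psat0s3664g0040 was at 2.11 CPM in Pruned 3, against 0.254 to 0.301.

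In Reactivated, Psat2g009400 was at 4.15 CPM in Reactivated 4, against 1.74 to 1.93 in the others. The median level of the 150 genes was 2.73 CPM in the same library, against 1.74 to 1.90.

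In GPA, library 4 was apart in each case. Psat5g061360 was at 2.51 CPM there, against 0.836 to 1.05 in the others, and Psat6g175480 at 20.6 CPM, against 10.6 to 12.1. Of the 150 genes, 118 had a count in GPA 4 and 116 in each of the others.

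In Proliferative, Psat0s2707g0200 was at 0.877 CPM in library 2, against 0.0532 to 0.0973 in the others. Psat4g077720 was at 0.343 CPM in library 1, against 0 to 0.0532. The mean log2(CPM + 0.5) of the 150 genes was 1.52 in Proliferative 3, against 1.68 to 1.71.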

How the results depend on the processing

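Of 203 recomputed counts and shares, 196 stayed within 1.5 times the reported value and 7 did not. Without the condition that single Pruned libraries clear Proliferative, 421 genes qualified in place of 204. With library totals, 32 of the genes were lower in Reactivated than in GPA in place of 17, and 42 lower than in Proliferative in place of 24; of all genes tested 49.5% and 41.9% were lower under that scaling, in place of 35.8% and 22.6%. Without the 10 most abundant genes the shares of counts were 0.340% in Pruned, 0.0501% in Reactivated, 0.0512% in GPA and 0.0731% in Proliferative. Leaving out 1 library moved the number that qualified between 203 and 296. New lists chosen without 1 Pruned library were an alternative added after the data were seen. They gave 51 to 61 genes higher in Reactivated than in GPA (36.3% of all genes tested) and 15 to 17 lower (35.8%). Lower in GPA than in Proliferative were 57 to 71 (35.1% of all genes tested), and higher were 11 to 15 (30.6%). The number of genes tested in each new list is not given here, so these counts are no shares. The replicate numbers gave no pairing that held across the groups. Deviations from the group mean correlated above 0.1 in 4 of 24 same-numbered pairs, and in 3 of 24 the best partner had the same number. The highest were 0.638 for Reactivated 2 with Proliferative 2 and 0.603 for Pruned 1 with Proliferative 1. What these libraries share was not tested. With the replicate block, every count of calls stayed within 1.5 times the reported count. The shares of all genes tested were not worked out for that fit. Of 258 alternatives for the 12 results of single genes, 7 lost their call, all with 1 library left out. These were Psat0s3139g0040 without GPA 2, Proliferative 3 or Proliferative 4, and Psat7g236240 between Reactivated and Proliferative. The other 251 were counted as unchanged, which includes any fit that gave the gene no adjusted p. The sign was compared for these 12 results only, and it changed in 0 alternatives. For genes at 0 counts in a group it could not change. For 6 of the 12, fitting only the 8 libraries compared gave no value, since the gene did not pass the filter. These 6 entered the test through the other groups, so nothing is read from their unchanged calls. At this depth 13 of the 150 genes had too few counts to be tested.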
